A study of Mus musculus with 37 samples.

Results

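Levels of 9 transcription factor genes of the myeloid lineage were described across single cells: Spi1, Cebpb, Maf, Irf8, Klf2, Klf4, Klf6, Nr4a1 and Batf3. They were chosen by symbol, and all 9 were found among the 23947 genes of the table. The 37 cells were labelled adipose tissue macrophages, sorted out of the epididymal fat depot of C57BL/6J males. The mice ate a purified high-fat diet in which fat supplied 60% of the energy, and carbohydrate and protein 20% each. Every cell carried the same strain, sex, diet and depot, so there was 1 group and no control group. The labels tie no cell to an animal, so the group counted as 1 sample, the spread given is that between cells, and no p-value was computed. Values are FPKM, fragment numbers scaled to transcript length and to sequencing depth, so levels of different genes are compared per length. From 1 FPKM upward a gene counts as detected. Cells bear their label numbers, 0 to 36.

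Macrophages arise from myeloid progenitors in which the ETS factor PU.1, encoded by Spi1, works with C/EBP and IRF factors to open the enhancers of myeloid genes. Large Maf proteins are known for holding mature macrophages out of the cell cycle, and Krüppel-like factors and Nr4a1 for tuning monocyte fate and inflammatory gene induction. Irf8 and Batf3 are best known together, as the pair that drives type 1 conventional dendritic cells. Fat tissue on a high-fat diet gathers macrophages, and their transcription factors are of interest because they set which programme a cell runs.

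All 37 cells held 8 to 10 of 10 macrophage markers, so the label fits the marker list, with the exception of 2 cells described next. Cells 7 and 27 also held 7 of 8 fibroblast and progenitor genes, and their values of the macrophage genes Lyz2, C1qb and Tyrobp were 0.696% to 1.23% of the median of the other 35 cells. No cell held 3 genes of any of the other 9 cell type lists, and a count of 0 among 37 leaves room for 8.11% at most. The number of detected genes ranged from 1224 to 3204 per cell with a median of 1824. Depth in fragments is unknown, and what 1 fragment was worth, estimated from low values, spanned 99.5-fold between cells. In 6 cells (2, 7, 15, 17, 24 and 26), called shallow here by this estimate alone, it was over 4 times the median. The number of detected genes differed among these 6. Cell 7 had the most of all cells, 3204, cells 2 and 24 had 2464 and 2424, and cells 15, 17 and 26 had 1669, 1945 and 1725. Genes above 0 FPKM numbered 3118, 3151, 2918, 2919 and 2491 in cells 2, 15, 17, 24 and 26, and 4555 in cell 7. Over all cells that number ran from 2491 to 4625. FPKM summed over all genes ran from 225528 to 1.84e+06 per cell with a median of 326230, so cells are not on a common sum. Shared low values split the cells at number 20 into what may be separate libraries, here the first part (0 to 19, 20 cells) and the second part (20 to 36, 17 cells), which the labels do not name. For every gene, counts of cells detected or below 1 FPKM in each part are therefore not independent of how the parts were found. Genes used by nearly every cell were also listed at 0, Gapdh in 2 cells, Rpl3 in 3 and Hprt in 6, so a value of 0 can be a failed estimate.

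The 9 factors divided into 3 that were high in most cells and 6 that were high in a minority. Cebpb, Klf6 and Maf had median levels of 93.1, 51.8 and 48.1 FPKM. Klf4 and Spi1 followed at 2.61 and 1.40 FPKM, and Klf2, Batf3, Nr4a1 and Irf8 stood at 0.523, 0.434, 0.192 and 0.117 FPKM. The 5 widest, Cebpb, Maf, Klf6, Klf4 and Spi1, were each detected in at least 19 of the 37 cells. Of the 4694 genes detected in at least 5 cells, 20.6% were as widely detected. The medians of the 9 genes lay at the 64.6th to 95.8th percentile of medians over the same 4694 genes.

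**Figure D1:**
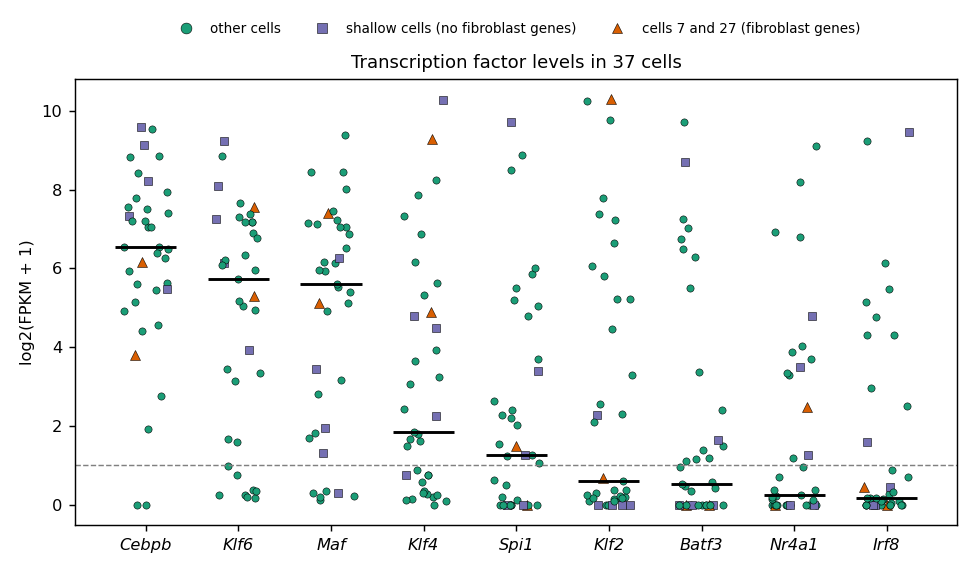
The 9 transcription factors, in order of their medians (black bars), with log2(FPKM + 1) plotted upward for all 37 cells. Each point is 1 cell, squares are shallow cells, triangles are the 2 cells with fibroblast genes, and the dashed line is 1 FPKM. Cebpb, Klf6 and Maf have medians of 48.1 FPKM or more, while the other 6 genes run from 0 to between 556 and 1259 FPKM.

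The order within the upper 3 was not fixed from cell to cell. Cebpb exceeded Klf6 in 19 cells and was below it in 18, and Klf6 exceeded Maf in 19 and was below it in 18, so these neighbours did not differ beyond their spread. Maf exceeded Klf4 in 25 of 37 cells, the clearest step in the order. Below it, Klf4 exceeded Spi1 in 23 cells, and Spi1 exceeded Klf2 in 15 cells against 19 the other way. Klf2 exceeded Batf3 in 22 cells against 12, Batf3 exceeded Nr4a1 in 18 against 16, and Nr4a1 exceeded Irf8 in 18 against 16. In the first library part the order of the upper 3 was Klf6, Maf and Cebpb, at medians of 65.3, 64.6 and 54.1 FPKM, and in the second Cebpb led at 145 FPKM.

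Cebpb encodes C/EBPβ, a basic leucine zipper factor induced by inflammatory signals and needed for full macrophage activation. It was detected in 35 of 37 cells (94.6%, exact 95% interval 81.8% to 99.3%, which covers the sampling of cells only). Its values ran from 0 through a median of 93.1 to 773 FPKM, the highest being in cell 17. The 2 cells without it, 0 and 4, were listed at exactly 0, and 33 cells were at 10 FPKM or more. It was thus the most widely detected of the 9, and was listed at 0 in 0 of the 17 cells of the second library part.

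Maf encodes c-Maf, a large Maf factor linked to resident macrophages and to interleukin 10 production. It was above 0 in every cell, with a lowest value of 0.0821, a median of 48.1 and a highest of 673 FPKM, and was detected in 31 (83.8%, 68.0% to 93.8%). Its low cells were few and distinct: 6 cells lay below 0.270 FPKM, 5 of them in the second library part, and none lay from there to 1.498 FPKM. Detection was 19 of 20 cells in the first part and 12 of 17 in the second.

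Klf6, a Krüppel-like factor induced early after tissue injury and known to promote inflammatory genes in macrophages, was detected in 29 cells (78.4%, 61.8% to 90.2%). Its values ran from 0.122 through 51.8 to 603 FPKM, and 24 cells were at 10 FPKM or more. Of the 20 cells of the first part, 13 were at 10 FPKM or more, 6 below 1 and 1 between, while of the 17 of the second part 11 were at 10 or more, 2 below 1 and 4 between. All 3 of Cebpb, Klf6 and Maf were detected in 23 cells, 2 of the 3 in 12 cells and 1 in 2 cells. At 10 FPKM or more all 3 were present in 14 cells, and every cell had at least 1 of them.

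Spi1 encodes PU.1, on which the whole macrophage lineage depends. Values ran from 0 through 1.40 to 836 FPKM, and 22 cells were at 1 FPKM or more (59.5%, 42.1% to 75.2%). Only 10 cells reached 10 FPKM and 11 were listed at 0. Cell 26 alone held 42.1% of the Spi1 FPKM summed over cells, and cells 14 and 18 followed at 475 and 364 FPKM. FPKM of all genes summed to 1.22e+06 in cell 26, 363322 in cell 14 and 337641 in cell 18. Relative to those sums Spi1 was lower in cell 26 than in cells 14 and 18. Cell 26 was shallow, and without the 6 shallow cells the median was 1.82 FPKM and 19 of 31 cells had the gene.

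Of 9 genes known to need PU.1 in myeloid cells, 7 were detected in more cells than Spi1, and Itgam and Fcgr1 in fewer (19 and 12 cells). Those found in more included the lysozyme gene Lyz2 and the signalling adaptor gene Tyrobp in 37 cells each and Csf1r, the receptor for the macrophage growth factor CSF1, in 35. Spearman's rank correlation, rho, of Spi1 with these 9 genes over the 37 cells ran from -0.20 to 0.11 with a median of -0.12. Csf1r, at a median of 52.4 FPKM, had a rho of -0.20 with Spi1.

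Irf8, an interferon regulatory factor required for monocyte and type 1 dendritic cell development, was the scarcest of the 9. It was detected in 11 cells (29.7%, 15.9% to 47.0%), with a median of 0.117 and a highest value of 702 FPKM. Cells 26 and 22, at 702 and 607 FPKM, stood far above the rest, since the next was cell 11 at 69.3 FPKM. Cell 26 was shallow, and its FPKM of all genes summed to 1.22e+06, against 303084 in cell 22. Relative to those sums Irf8 was higher in cell 22. The other 9 detected cells lay between 2.04 and 69.3 FPKM, and 26 cells were below 1 FPKM, 11 of them listed at 0.

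Batf3, the small leucine zipper partner of Irf8 in dendritic cells, was detected in 16 cells (43.2%, 27.1% to 60.5%). Its values ran from 0 through 0.434 to 843 FPKM, the highest in cell 18 and the next, 415 FPKM, in shallow cell 2. Only 8 of the 16 cells were at 10 FPKM or more, and these 8 ran from 44.7 FPKM upward. Detection was 11 of 20 cells in the first library part and 5 of 17 in the second.

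Irf8 and Batf3 coincided in 7 cells, where the product of their shares gives 4.76, and at 10 FPKM or more in 3 cells (6, 20 and 22), where it gives 1.73. Their rho was 0.28 over all cells, 0.51 in the first library part and 0.01 in the second. None of 8 type 1 dendritic cell genes was detected in more than 8 of the 37 cells, and their coincidence with Irf8 and Batf3 was not counted. Flt3, Xcr1 and Clec9a, a growth factor receptor, a chemokine receptor and a lectin that define these dendritic cells, were listed at 0 in all 37 cells, and Zbtb46 and Itgae did not exceed 0.0378 FPKM. Wdfy4, needed for cross-presentation of antigen, was the most frequent, in 8 cells with a highest value of 791 FPKM. That value was in shallow cell 2, where Batf3 was at 415 and Irf8 at 2.04 FPKM. Cd24a was detected in cell 36 alone, where Batf3 was at 129 and Irf8 at 0 FPKM. Over a separate list of 8 general dendritic cell markers, which omits Wdfy4, no cell held more than 1 gene, and their summed level ran from 0 to 531 FPKM.

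Klf2 and Klf4 are related factors best known for quiescence in endothelial cells and, for Klf4, for monocyte differentiation. Klf2 was detected in 17 cells (45.9%, 29.5% to 63.1%), from 0 through a median of 0.523 to 1259 FPKM. In the first library part 7 of 20 cells had it, with a median of 0.300 FPKM, and in the second 10 of 17, with a median of 3.87 FPKM, where Klf2 ranked 4 among the 9. Where it was detected the median was 54.6 FPKM, and 3 cells (9, 27 and 29) were at 1215, 1259 and 879 FPKM. The highest of these in FPKM was cell 27, which held fibroblast genes. FPKM of all genes summed to 618604, 814569 and 326230 in cells 9, 27 and 29. Relative to those sums Klf2 was lowest of the 3 in cell 27. Klf2 was listed at 0 in 4 of the 6 shallow cells and in 2 of the other 31. Leaving the shallow cells out raised its median from 0.523 to 3.29 FPKM, above Klf4 at 2.19 and Spi1 at 1.82 FPKM in the same cells.

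Klf4 was detected in 23 cells (62.2%, 44.8% to 77.5%), from 0 through 2.61 to 1237 FPKM. The highest values were 1237 FPKM in shallow cell 26 and 621 FPKM in cell 27, which held fibroblast genes. Among the remaining cells the highest were 302 and 232 FPKM, in cells 22 and 5. FPKM of all genes summed to 1.22e+06 in cell 26 and 814569 in cell 27, against 303084 in cell 22 and 260824 in cell 5. Relative to those sums Klf4 was lower in cell 27 than in cells 22 and 5. Klf2 and Klf4 coincided in 12 cells (10.6 by the product of shares), with a rho of 0.16, which was -0.09 in the first library part and 0.42 in the second.

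Nr4a1 encodes Nur77, an orphan nuclear receptor induced within minutes of stimulation and needed for Ly6C-low monocytes. It was detected in 14 cells (37.8%, 22.5% to 55.2%), from 0 through 0.192 to 556 FPKM, the highest being in cell 34. The shape of its values differed between the library parts. In the first part 14 of 20 cells were listed at 0 and the other 6 lay between 8.73 and 110 FPKM, with nothing between. In the second part no cell was at 0, 9 of 17 lay below 1 FPKM, from 0.0946 upward, and 8 between 1.26 and 556 FPKM. The parts were found from low values of all genes, so these counts are not independent of them, and the part of the libraries in them was not tested. At 10 FPKM or more Nr4a1 was present in 4 cells of the first part and 5 of the second.

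Of 8 genes of Ly6C-low monocytes none was detected in at least 19 cells. The Fc receptor gene Fcgr4 alone was detected in at least 5 cells (12 cells). Of all 23947 genes, 965 were detected in at least 19 cells and 4694 in at least 5. Fcgr4 had a rho of 0.01 with Nr4a1 (0.26 and 0.03 in the library parts), and the other genes of the list were too rare for a rho. The fractalkine receptor gene Cx3cr1 was detected in 4 cells and Treml4 in 2.

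**Figure D2:**
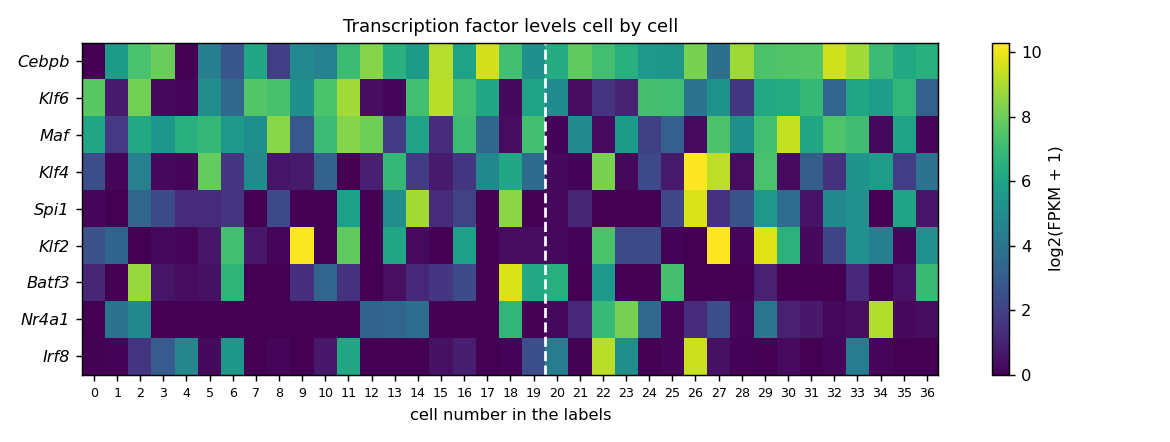
Level of the 9 transcription factors, in rows ordered by median, in each of the 37 cells, in columns by cell number, coloured by log2(FPKM + 1). The dashed line separates the first from the second library part. Cebpb is bright in nearly every column, while the lower 5 rows are dark except in scattered cells.

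Seen by cell, between 3 and 8 of the 9 factors were detected, with a median of 5. Cells 2, 6 and 33 had 8, and cells 4 and 12 had 3. At 10 FPKM or more the number ran from 2 to 7 with a median of 4. The number detected had a rho of 0.17 with the number of all genes detected and 0.27 with the value of 1 fragment. The most abundant of the 9 differed between cells: Cebpb led in 9, Klf6 in 8, Batf3 in 5, Klf2 and Maf in 4 each, Klf4 in 3, Nr4a1 in 2 and Irf8 and Spi1 in 1 each. Every one of the 9 was therefore the leading factor in some cell, Batf3 with a median of 0.434 FPKM included.

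The 2 cells with fibroblast genes differed from each other in several of the 9. Spi1, Irf8 and Batf3 were at 0 in cell 7 and at 1.82, 0.363 and 0 FPKM in cell 27. Cebpb was at 70.1 and 13.1 FPKM and Maf at 33.8 and 168 FPKM, within the range of the other 35 cells. In FPKM, Klf2 was highest of all cells in cell 27, Klf4 second highest there, and Klf6 ranked 5 from the top in cell 7 at 187 FPKM. Relative to the summed FPKM of each cell, these ranks were lower. With 2 such cells no comparison was made.

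Relatives were compared for the Klf, C/EBP, Irf, Spi, Nr4a and Batf families, and most were found in fewer cells. Among all 23947 genes, 965 were detected in at least 19 cells, or 20.6% of the 4694 detected in at least 5. In the Klf family 3 of 17 genes were detected in at least 19 cells, the third beside Klf4 and Klf6 being Klf13, present in 28 cells with a median level of 25.4 FPKM. Klf10, induced by TGFβ, was found in 13 cells and Klf3 in 10, while Klf1, Klf5, Klf12, Klf14 and Klf17 were detected in none. Cebpa, the C/EBP of early myeloid commitment, was found in 12 cells against 35 for Cebpb, and the rho of the pair was -0.15. Of the 9 Irf genes Irf2 was the most frequent, in 20 cells, followed by Irf5 in 18 and Irf1 in 17, all ahead of Irf8. Spib and Spic, the nearest relatives of Spi1, were detected in none, nor was Nr4a3, while Nr4a2 was found in 5 cells. Batf was found in 2 cells and Batf2 in none. Of 21 other myeloid regulators 3 were detected in at least 19 cells: Fli1, an ETS factor, in 30, Zeb2, a zinc finger factor of myeloid identity, in 24, and Stat3, the signal carrier of interleukin 6 and 10, in 21.

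**Figure D3:**
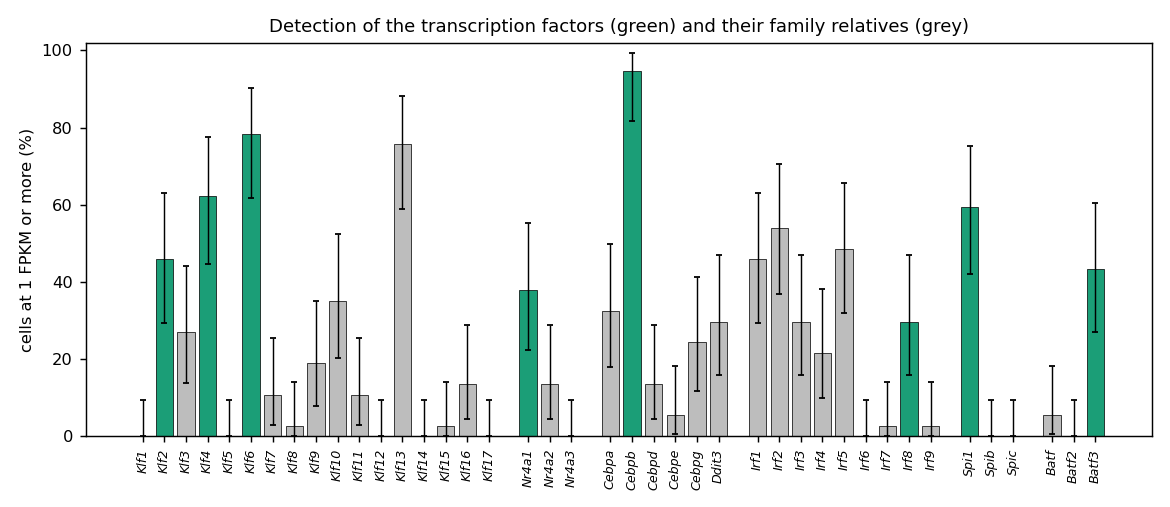
Share of the 37 cells at 1 FPKM or more for 8 of the 9 transcription factors (green, all but Maf) and their relatives in 6 families (grey), in percent on the vertical axis. Bars are shares and whiskers exact 95% intervals over cells. Klf13 at 75.7% is the highest grey bar, just under Klf6 at 78.4%.

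The sequences just upstream of Cebpb and Nr4a1 are shown because both genes are classic inducible factors, and 1 was the most widely detected of the 9 while the other was found in 14 cells. Promoter sequence from RefSeq on GRCm38.p6 was matched for 7 of the 9, all but Spi1 and Maf. Each run covers the 250 bases before the annotated start, on the strand of the gene, and capitals mark TGACG, the core of the cAMP response element, on either strand (CGTCA on the printed strand). The Cebpb run lies at chr2:167688665-167688914 and the Nr4a1 run at chr15:101266596-101266845, both on the plus strand.
Cebpb: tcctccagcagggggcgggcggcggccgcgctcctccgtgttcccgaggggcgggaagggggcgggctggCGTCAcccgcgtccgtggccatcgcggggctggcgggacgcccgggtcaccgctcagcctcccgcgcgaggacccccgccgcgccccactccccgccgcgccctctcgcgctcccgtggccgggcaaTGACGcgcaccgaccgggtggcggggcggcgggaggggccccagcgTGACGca
Nr4a1: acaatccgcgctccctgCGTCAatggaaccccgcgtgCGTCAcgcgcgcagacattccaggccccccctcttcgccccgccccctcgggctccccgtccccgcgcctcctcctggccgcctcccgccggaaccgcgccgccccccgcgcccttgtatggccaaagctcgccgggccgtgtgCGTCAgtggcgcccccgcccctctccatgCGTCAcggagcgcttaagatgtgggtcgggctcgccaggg
Cebpb held 3 matches, with their first base at -180, -53 and -7 relative to the start, and Nr4a1 held 4, at -233, -213, -69 and -40. Of 32817 mouse promoter windows of this length 17.7% held at least 1 match, 0.689% at least 3 and 0.137% at least 4. Bases G and C made up 81.6% of the Cebpb run and 74.4% of the Nr4a1 run, against a median of 52.4% over all windows. No comparison with windows of like G and C content was made, so these shares do not show that the matches are rare for such sequence. Klf2 and Klf4 held 1 match each, and the windows of Klf6, Irf8 and Batf3 none. The full palindrome TGACGTCA was in none of the 7, against 1.55% of all windows, and of the 7 only Irf8 held TATAAA, at -31, against 12.4%. These are matches of letters and not measured binding. The rho of Cebpb and Nr4a1 over cells was 0.27, but 0.33 in the first library part and -0.19 in the second, and Pearson's r was 0.17.

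No pair of the 9 factors was closely correlated over the cells. The rho of the 36 pairs ran from -0.30 to 0.29 with a median of 0.05, and 0 of 36 reached an absolute rho of 0.4. Among all 2850078 pairs of the 2388 genes detected in at least 10 cells, 2.19% reached it. The median absolute rho was 0.13 for the 36 pairs and 0.12 for all pairs. The cells share animals, libraries and depth in ways the labels do not give, so these values are descriptive.

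**Figure D4:**
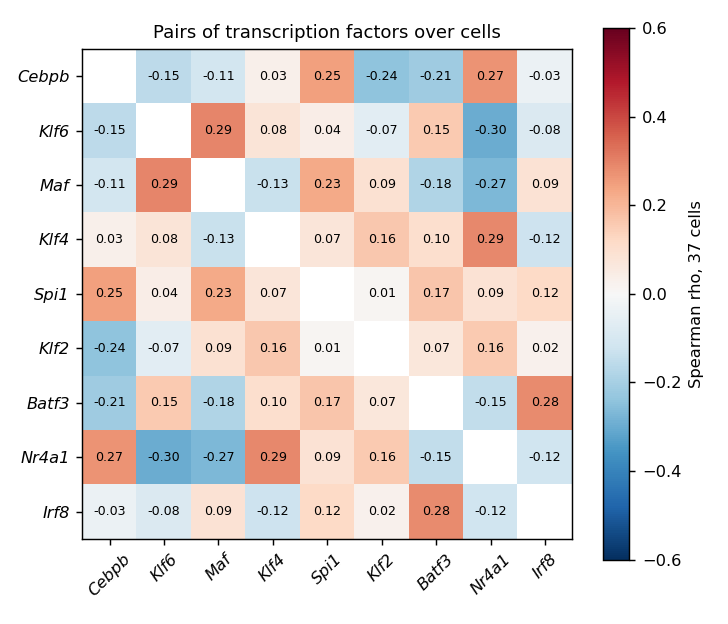
Spearman rho over the 37 cells for each pair of the 9 transcription factors, coloured from -0.6 to 0.6 and printed in each square. Rows and columns follow the order of median levels. The highest value is 0.29 and the lowest -0.30.

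The most positive pairs were Maf with Klf6 (rho 0.29, r 0.26), Klf4 with Nr4a1 (rho 0.29, r 0.31) and Irf8 with Batf3 (rho 0.28, r 0.18). Maf and Klf6 had 0.25 and 0.23 in the library parts, and Klf4 and Nr4a1 0.23 and 0.39, so both were alike in sign in the 2 parts. The most negative were Klf6 with Nr4a1 (rho -0.30, r -0.31; -0.29 and -0.11 in the parts) and Maf with Nr4a1 (rho -0.27, r -0.35; -0.34 and -0.09). Klf6 and Nr4a1 coincided in 8 cells, where the product of shares gives 10.97, the widest shortfall of the 36 pairs. Klf4 and Klf6 coincided in 21, where it gives 18.03, the widest excess. Only 16 of the 36 pairs had the same sign in both parts. Spi1 with Maf was -0.03 in the first part and 0.50 in the second, and Spi1 with Nr4a1 0.38 and -0.43.

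The count of pairs at 0.4 changed with the cells kept. Without the 6 shallow cells it was 2, Maf with Klf6 at 0.45 and Cebpb with Nr4a1 at 0.43, a pair whose sign turned between the library parts. It was 1 in the first part alone and 5 in the second part alone, where 17 cells remained. Without the 2 cells that held fibroblast genes it was 0. The share of all gene pairs at 0.4, 2.19%, was computed over the 37 cells only. The counts in fewer cells therefore have no such share beside them and are not read as a result about the factors.

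Immediate early genes, which respond within minutes to stimulation and to tissue digestion, were widespread, with 12 of 14 detected in at least 19 cells. Of the 4694 genes detected in at least 5 cells, as all 14 were, 20.6% were as widely detected. The tissue was digested for 30 min before the sort, and the part of that step in these values was not tested. All 13 of these genes that were detected in at least 10 cells had a positive rho with Klf6 (0.01 to 0.46, median 0.28) and with Klf4 (0.04 to 0.48, median 0.19). Egr1, a zinc finger factor of this class, had a rho of 0.46 with Klf6 and 0.48 with Klf4, the latter 0.18 and 0.77 in the 2 library parts. Signs were not kept throughout: 10 of the 13 were positive in both parts with Klf6 and 8 with Klf4. Junb with Klf6 was 0.27 and -0.43, and Fos with Klf4 -0.31 and 0.60. Klf6 also had the highest rho of the 9 factors with the value of 1 fragment, 0.34, and the part of depth in its values was not tested. For Klf6 the values with all 2387 other genes were 59.4% positive with a median of 0.04, and for Klf4 40.8% positive with a median of -0.04. Nr4a1, itself an immediate early gene, had a median rho of 0.16 with the 13, from -0.20 to 0.38, and none reached 0.4. With Junb, an AP-1 subunit, its rho was 0.28, and with Egr1 -0.06.

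Among genes typical of resident macrophages, 9 were frequent enough (10 cells or more), and all 9 had a positive rho with Maf (0.02 to 0.45, median 0.26). The same held for 8 of 9 with Klf6 (median 0.25) and 8 of 9 with Irf8 (median 0.11). Over all 2387 other genes 54.3% were positive with Maf (median 0.02), 59.4% with Klf6 and 49.2% with Irf8. Positive in both library parts were 6 of 9 with Maf, 6 with Klf6 and 4 with Irf8. Pf4, a chemokine abundant in resident macrophages, had a rho of 0.45 with Maf and 0.43 with Klf6, at 0.49 and 0.36 in the 2 parts for Maf and 0.40 and 0.51 for Klf6. F13a1, a coagulation factor subunit, had 0.57 with Klf6 (0.66 and 0.42 in the parts), the highest of all 531 pairs of a factor with a listed gene. Mrc1, the mannose receptor gene, had 0.40 with Klf6 but 0.63 and -0.02 in the parts. Klf4 had the lowest median with this list, at -0.15.

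**Figure D5:**
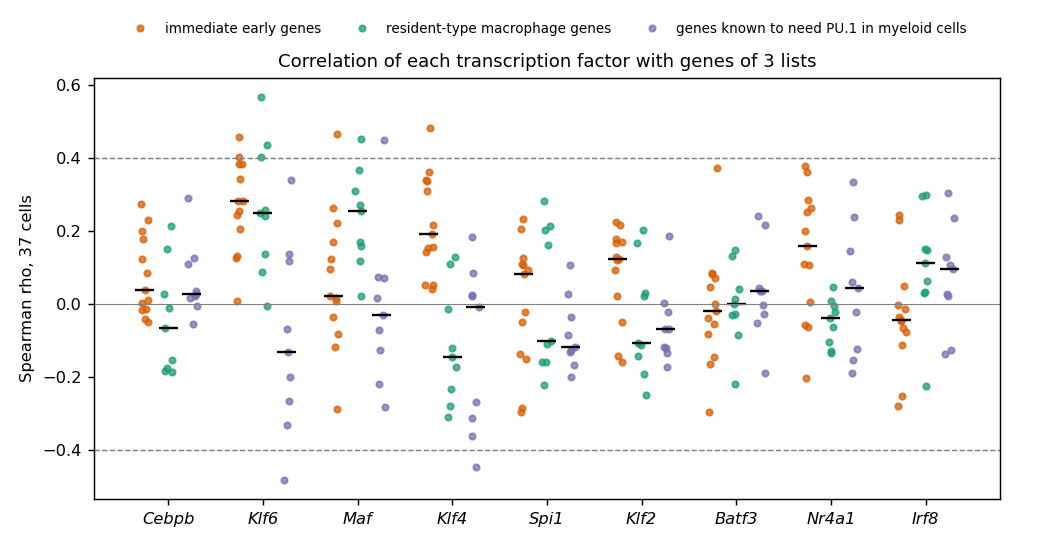
Spearman rho over the 37 cells of each of the 9 transcription factors with the genes of 3 lists, 1 point per gene, for immediate early genes (orange, 13 genes), resident-type macrophage genes (green, 9) and genes known to need PU.1 (purple, 9). Black bars are medians and dashed lines mark an absolute rho of 0.4. Klf6 and Klf4 have all orange points above 0, and Maf all green points.

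Over all lists 14 of 531 such pairs, or 2.64%, reached an absolute rho of 0.4, close to the 2.19% of all gene pairs. The others beside those named were Nr4a1 with Id2, an inhibitor of basic helix-loop-helix factors (0.52), Spi1 with Irf5 (0.47), Maf with the AP-1 subunit gene Jun (0.46) and with the Fc receptor gene Fcgr1 (0.45), Klf2 with Klf13 (0.44), Klf6 with Ier3 (0.40), Klf4 with Lyz2 (-0.45) and Klf6 with Tyrobp (-0.48). Without the 2 cells that held fibroblast genes Klf4 with Lyz2 was -0.38, Klf2 with Klf13 0.39 and Klf6 with Ier3 0.38, so these 3 rested in part on those cells. For Spi1 with Irf5 Pearson's r was 0.32, and 0.11 once the 2 cells farthest from the Spi1 median were left out. Nr4a1 and Id2 coincided in 9 cells (4.54 by the product of shares), with 0.46 and 0.42 in the library parts. Of 7 known C/EBPβ targets none was detected in at least 19 cells and 2 in at least 5. Arg1, Il6 and Il10 were found in 1, 4 and 9 cells. Among all 23947 genes, 965 were in at least 19 cells and 4694 in at least 5. The counts for the 7 targets are therefore not read as a result about them. Of 5 genes known as Klf2 targets in other cells, the cell cycle inhibitor Cdkn1a was found in 18 cells and the sphingosine receptor gene S1pr1 in 2.

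The genes most like each factor were sought among 2388 genes over the 35 cells without fibroblast genes. Nktr (rho 0.64), Arl6ip1 (0.57) and Cd68 (0.56) were nearest to Spi1, Cd68 being the lysosomal glycoprotein used as a macrophage marker. Nearest to Klf6 were Gda (0.61), F13a1 (0.58) and Jmjd1c (0.55), and to Cebpb Banf1 (0.58), Rps18 (0.54) and Wbp1l (0.53). Gadd45b (0.55), Capzb (0.54) and Pacs2 (0.51) were nearest to Batf3, and Ndufa9 (0.53), Csnk2a2 (0.50) and Rps6ka3 (0.47) to Klf2. Clk1 (0.53), Pf4 (0.52) and Mtss1 (0.50) were nearest to Maf, and Dynlt3 (0.53), Abhd12 (0.52) and Wwp1 (0.52) to Irf8. Rel, an NF-κB subunit (0.52), Lsp1 (0.51) and Ifnar1 (0.49) were nearest to Nr4a1, and Ifrd1 (0.52), Tgif1 (0.50) and Tbca (0.48) to Klf4. Such values were not high among genes. The highest rho that each of the 2388 genes reached with any other had a median of 0.60 and a lower quartile of 0.563. The best match of 7 of the 9 factors lay below that median. For Batf3, Klf2, Maf, Irf8, Nr4a1 and Klf4 it also lay below the lower quartile. None of the 9 had another of the 9 among its nearest genes.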

How the data were processed

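Polyadenylated RNA of 37 single cells was captured in Fluidigm C1 microfluidic chambers and sequenced as Nextera XT libraries. The deposited FPKM values were made by the authors with Cuffnorm after alignment with STAR to mm9, per the submitters' processing notes, while versions, annotation and sort gate were not given in the sources used here. FPKM are not counts, so no count test was used, and depth is unknown.

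With 1 group, no test was made. Computed here, with Python 3.11.15, pandas 2.3.3 and scipy 1.17.1, were shares of cells at 1 FPKM or more with exact Clopper-Pearson 95% intervals, medians, and Spearman rho and Pearson r of log2(FPKM + 1). What 1 fragment was worth was estimated from ratios of low values (0.005 to 1 FPKM) in 666 pairs of cells, 607 of them used. Library parts came from 28 positions along the cell numbers, the mean correlation of low-value indicators being 0.0805 within and 0.0310 between parts. A cell held a list at 3 or more detected genes. All 130 genes of the 15 gene lists matched. Named genes were the 9 factors, their relatives (Maf family relatives are not reported here), pairs at an absolute rho of 0.4 or more, up to 6 most frequent genes per list and the 3 most alike genes per factor. Pairs of factors, cells named for their values and further list genes were chosen after their values were seen. The scripts were tested on simulated data. The factors and lists were chosen with earlier results of these data known. Alternatives were other thresholds, pseudocounts, scalings and subsets of cells.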

Additional observations from a re-analysis of the deposited data

How the results depend on the processing

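Thresholds and subsets moved some results. The number of factors detected in at least 19 cells was 5, and became 9 at 0.1 FPKM, 3 at 5 FPKM and 3 at 10 FPKM, a threshold added after seeing the data. It was 4 when more than 3% of the gene's mean was also asked for, and 5 or 6 in the subsets of cells, each counted against its own number of cells. The number of pairs at an absolute rho of 0.4 was 0, and became 1 after rescaling all cells to one common sum, 2 without the shallow cells, 1 in the first library part and 5 in the second. It remained 0 under the other 5 alternatives, both Pearson settings included. The share of all gene pairs at 0.4 was not computed under these alternatives. Single pair values moved by more than 0.2 in 34 cases, 27 of them in the library parts, and by less in 290. Shares of cells left their exact interval in 15 cases and stayed within it in 57. Medians were counted as moved in 2 cases and as unmoved in 43. The 2 were Cebpb, from 93.1 to 274, and Maf, from 48.1 to 157, after rescaling to a common sum, under which every median rose. In that setting Maf stood above Klf6, at 124. Some low medians changed without being counted as moved. Klf2 went from 0.523 to 3.29 FPKM without the shallow cells, and Batf3 from 0.434 to 1.22 and 0 FPKM in the library parts. Of the 27 most alike genes 16 were kept over all 37 cells, 14 with genes detected in at least 5 cells and 5 with Pearson r, so those names depend on the setting. Unknown depth limits what a value under 1 FPKM can show. The cells come from an unknown number of animals, so intervals over cells may be too narrow.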
